A study of Mus musculus with 16 samples.

Results

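The genes described here are 32 macrophage and myeloid genes, chosen by symbol from the 24016 named genes of a deposited expression table. All 32 had a row, and 30 of them passed the filter on low values (at least 1 FPKM in at least 8 of 16 tumors) and were tested. Marco and Cd163 did not pass it and are given as values. The values, which carry no stated unit, were read as FPKM, fragment numbers divided by transcript length and library size, in which levels of different genes can be set side by side.

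The tumors were 16 mouse small cell lung cancers, 8 labelled sgControl RPP and 8 labelled sgKdm5a RPP. All mice were of the H11-LSL-Cas9 strain, in which Cre switches on a Cas9 transgene, and were 2 to 4 months old when adenovirus was given into the trachea. Both viruses carried CMV-driven Cre, which is not restricted to a cell type, and the RPP guides, taken here from knowledge of the model as guides against Rb1, Trp53 and Rbl2. The sgKdm5a RPP virus added a guide against Kdm5a, which encodes an enzyme that removes methyl groups from histone H3, and the sgControl RPP virus a control guide. Tumors were taken at the end of the study, at a time that is not given, and each column carried its own mouse number in the header, so each library was treated as 1 animal. The numbers form 2 series, 190 to 238 (7 sgControl RPP and 4 sgKdm5a RPP) and 839 to 893 (1 and 4), and what separates them is not stated.

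On the deposited values Kdm5a RNA was higher, not lower, under its own guide label. It was 8.16 to 17.3 FPKM in the sgKdm5a RPP tumors and 3.28 to 8.06 FPKM in the sgControl RPP tumors. Whether Kdm5a was edited in these tumors was not tested. The groups are therefore called sgKdm5a-labelled and sgControl-labelled, and every direction below rests on those labels. One library, sgControl RPP tumor 1, stood apart, with a median of 2.38 FPKM over the tested genes against 10.0 to 12.3 FPKM in the other 15. It held the lowest FPKM of 25 of the 32 members. Differences are given on the deposited values and after median scaling, which sets the medians of all libraries equal, with and without that tumor. Relative to the library median, Kdm5a overlapped between groups, at 0.481 to 1.38 in sgControl RPP and 0.727 to 1.73 in sgKdm5a RPP tumors. The value of 1.38 was that of sgControl RPP tumor 1. The log2 difference of Kdm5a was 0.84 on the deposited values and 0.61 after median scaling (limma adjusted p = 0.852 and 0.364). The read depth behind the values is unknown, and errors are the spread among tumors.

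Macrophages are phagocytes that arise from embryonic precursors or from blood monocytes and depend on the growth factor receptor CSF1R and the transcription factor PU.1, the product of Spi1. The lung holds alveolar macrophages, which clear surfactant from the air spaces, and interstitial macrophages of the tissue wall, and tumors draw in further monocytes that become tumor-associated macrophages. The members cover the lineage factor and pan-macrophage genes, the complement protein C1q, Fc receptors with their signaling adaptors, scavenger and pattern receptors, lysosomal enzymes, lipid-handling receptors, and receptors for adhesion and migration. In a bulk tumor, fewer cells of a type and less RNA per cell cannot be told apart. Emr1, the gene of the macrophage surface protein F4/80, was measured at 0.450 to 5.02 FPKM in the sgControl-labelled and 2.89 to 5.77 FPKM in the sgKdm5a-labelled tumors, so RNA of this marker was detected in every tumor.

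Promoters of 6 members are shown because PU.1 is known to act on many macrophage genes through a purine-rich motif. Clec4d and Trem2 had low unadjusted p-values below, Laptm5 and Ctss followed the mean of the members most closely, and C1qb and C1qc moved together. Each sequence runs 5′ to 3′ on the strand of the gene, from 250 bases before to 50 bases after the transcription start, and was taken from RefSeq (build GRCm38.p6). Capitals mark matches to GAGGAAG or its reverse complement CTTCCTC, searched on both strands as the only motif.
Clec4d (chr6:123261857-123262156, plus strand): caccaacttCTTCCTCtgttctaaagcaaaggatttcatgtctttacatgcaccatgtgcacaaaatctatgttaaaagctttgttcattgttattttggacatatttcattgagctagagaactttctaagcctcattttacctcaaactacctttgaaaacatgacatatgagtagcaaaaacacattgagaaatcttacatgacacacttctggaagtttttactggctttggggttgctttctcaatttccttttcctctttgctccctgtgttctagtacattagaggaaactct
Trem2 (chr17:48346151-48346450, plus strand): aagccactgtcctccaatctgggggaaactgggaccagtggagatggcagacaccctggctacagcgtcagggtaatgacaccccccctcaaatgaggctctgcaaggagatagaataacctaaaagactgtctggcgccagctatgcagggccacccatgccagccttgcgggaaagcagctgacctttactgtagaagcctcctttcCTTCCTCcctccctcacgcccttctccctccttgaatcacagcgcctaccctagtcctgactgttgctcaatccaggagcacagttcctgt
Laptm5 (chr4:130913066-130913365, plus strand): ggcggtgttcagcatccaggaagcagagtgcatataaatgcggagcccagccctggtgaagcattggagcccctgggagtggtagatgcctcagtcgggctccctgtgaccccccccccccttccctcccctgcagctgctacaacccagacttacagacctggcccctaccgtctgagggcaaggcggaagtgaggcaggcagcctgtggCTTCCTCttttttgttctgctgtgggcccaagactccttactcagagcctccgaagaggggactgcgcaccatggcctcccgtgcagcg
Ctss (chr3:95526536-95526835, plus strand): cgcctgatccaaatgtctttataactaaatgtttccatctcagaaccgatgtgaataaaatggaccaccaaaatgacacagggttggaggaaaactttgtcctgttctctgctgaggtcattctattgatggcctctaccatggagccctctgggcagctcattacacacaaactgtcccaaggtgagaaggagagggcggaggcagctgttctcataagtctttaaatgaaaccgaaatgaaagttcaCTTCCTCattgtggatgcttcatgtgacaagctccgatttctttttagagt
C1qb (chr4:136886151-136886450, minus strand): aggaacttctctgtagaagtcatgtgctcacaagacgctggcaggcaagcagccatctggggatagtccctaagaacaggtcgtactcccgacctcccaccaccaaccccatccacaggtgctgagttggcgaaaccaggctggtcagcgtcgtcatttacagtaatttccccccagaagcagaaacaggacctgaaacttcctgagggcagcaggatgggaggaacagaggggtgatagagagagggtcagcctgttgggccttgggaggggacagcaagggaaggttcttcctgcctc
C1qc (chr4:136892865-136893164, minus strand): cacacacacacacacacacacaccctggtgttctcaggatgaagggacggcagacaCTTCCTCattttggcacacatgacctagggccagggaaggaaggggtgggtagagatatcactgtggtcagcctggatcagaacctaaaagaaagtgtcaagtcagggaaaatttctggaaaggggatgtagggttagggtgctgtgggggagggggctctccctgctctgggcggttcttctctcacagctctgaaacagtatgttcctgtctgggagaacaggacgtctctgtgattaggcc
The match began 41 bases before the start in Trem2 and 39 before it in Laptm5, spanned the start itself in Ctss, and lay 194 bases before it in C1qc and 241 in Clec4d. C1qb had no match in this window. Promoters were found for 26 of the 32 members, without Spi1, Csf1r, Cd14, C1qa, Tyrobp and Msr1. Of these 26, 10 had a match in at least one window (38.5%), against 4151 of 27018 genes in the RefSeq promoter table (15.4%). By window, 11 of 32 member promoters held it (34.4%) against 13.6% of 32841 promoters of the same length. A match is only a run of letters, and binding was not measured here.

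The comparison of the labelled groups asked how editing of Kdm5a in the tumor altered gene expression, here in the genes of the myeloid infiltrate. Most macrophage genes had higher levels in the sgKdm5a-labelled tumors, but none of the 30 tested members passed the test over all genes. Clec4d came closest by unadjusted p on the deposited values. It averaged 0.806 ± 0.507 FPKM in the sgControl-labelled and 2.49 ± 1.07 FPKM in the sgKdm5a-labelled tumors. Trem2 followed with 4.54 ± 1.62 and 7.96 ± 3.66 FPKM (SD, n = 8 each). Clec4d passed the filter mainly through the sgKdm5a-labelled tumors. After median scaling Apoe came closest instead, with an adjusted p of 0.403 against 0.483 for Clec4d (limma). Aif1, Ms4a7 and Ccr2 had lower mean FPKM in the sgKdm5a-labelled tumors, although on the log2 scale the differences of Ms4a7 and Ccr2 were 0.01 and 0.26.

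In limma with Benjamini-Hochberg adjustment, 0 of 30 members were called in either direction, where 0.00762% of all 13123 tested genes were called higher and 0% lower. At an unadjusted p under 0.05, 4 members were higher and 0 lower, where 3.72% of all genes were higher and 0.701% lower. After median scaling the same threshold held 4 members, all higher, where 4.74% of all genes were higher and 5.19% lower. With sgControl RPP tumor 1 also left out it held 4, all higher, where 4.07% were higher and 4.60% lower. The log2 difference was above 0 in 29 of 30 members on the deposited values, where 77.0% of all genes were above 0. After median scaling it was above 0 in 24 of 30 members, where 50.4% of all genes were, and without sgControl RPP tumor 1 in 26 of 30, where 50.7% were. The median difference of all tested genes was itself 0.21 on the deposited values, 0.0020 after scaling and 0.0040 after scaling with sgControl RPP tumor 1 left out. Without scaling, leaving out that tumor alone took it to -0.013. The median difference of the members lay 0.26 above that of all tested genes on the log2 scale, 0.29 above after scaling and 0.24 above when that tumor was also left out. No member's groups were free of overlap, where 0.0838% of all genes had every sgKdm5a-labelled tumor above every sgControl-labelled one in FPKM, and 0.0762% relative to the library median. Among the 11 tumors numbered 190 to 238 alone, 0 members were called, 25 of 30 were above 0 and 4 had an unadjusted p under 0.05. Of all 13123 genes there, 6 were called higher and 0 lower, and 590 were higher and 83 lower at that unadjusted threshold. Their median difference was 0.24, so most of all genes were above 0 there too. In these 11 tumors after median scaling, a fit added after seeing the data, 0 members were called and 23 of 30 were above 0. The median difference of all genes was then -0.012. With the number series as a covariate on the deposited values, 0 members were called, 24 were above 0 and 1 had an unadjusted p under 0.05. Over all genes 1 was then called higher and 0 lower, and 276 were higher and 75 lower unadjusted. The median difference of all genes was 0.17, so most were again above 0. The tumors numbered 839 to 893 hold 1 sgControl-labelled tumor, too few for a value of their own.

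**Figure D1:**
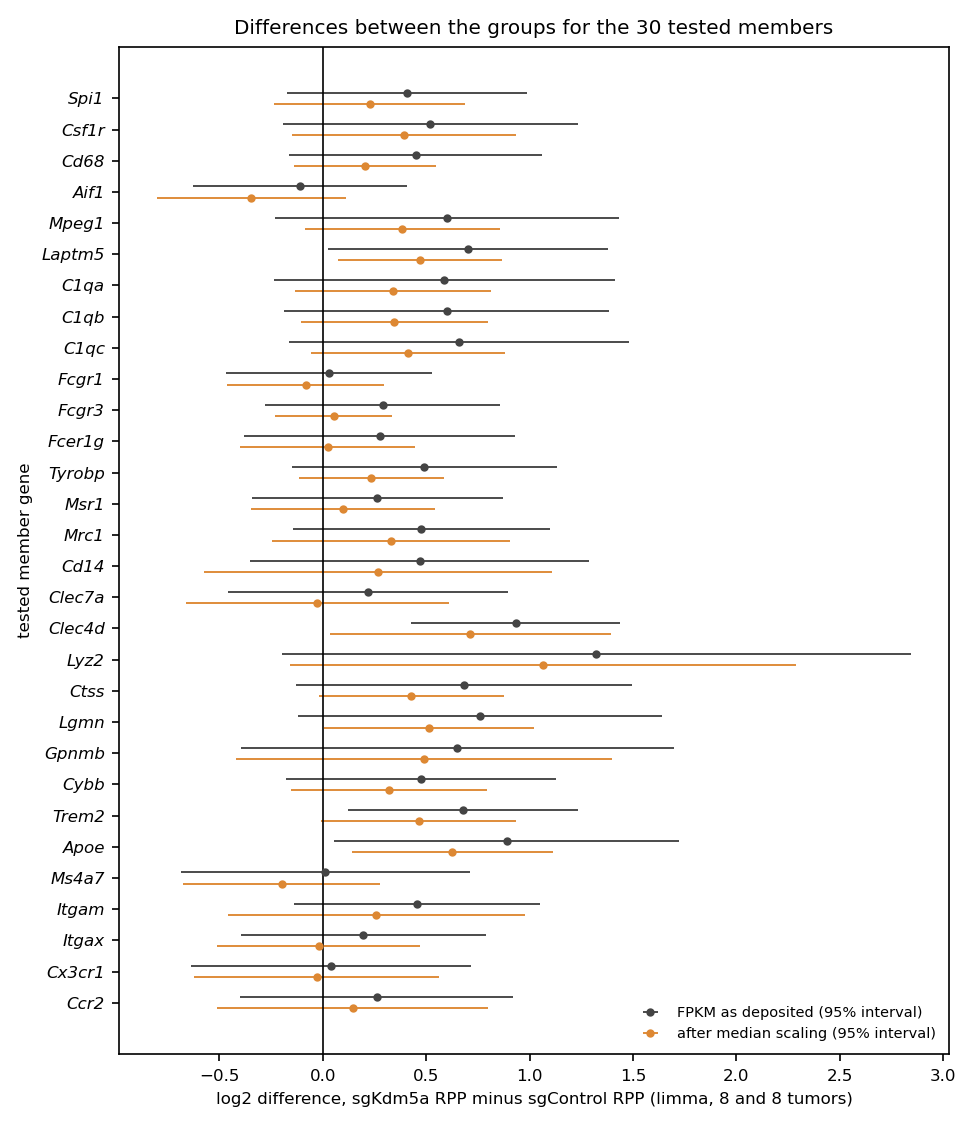
Log2 difference between the labelled groups (x axis, sgKdm5a RPP minus sgControl RPP, 8 tumors each) for the 30 tested members (y axis), with 95% intervals of the limma fit, on the deposited FPKM (grey) and after median scaling (orange). Most points lie to the right of 0, most intervals span 0, and scaling moves nearly every point to the left.

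Among the lineage and pan-macrophage genes, 5 of 6 had a higher mean in the sgKdm5a-labelled tumors and 0 of 6 passed the test over all genes. That is near the share of all genes with a log2 difference above 0 on the deposited values, 77%. Laptm5, a lysosomal membrane protein of blood cells, ranged from 3.05 to 35.0 FPKM (median 15.6) in the sgControl-labelled tumors and from 16.1 to 33.0 FPKM (median 25.3) in the sgKdm5a-labelled tumors. The whole sgKdm5a-labelled group lay above the median of the other, yet the highest single value belonged to sgControl RPP tumor 5. Its log2 difference was 0.70 ± 0.33 (SE, limma adjusted p = 0.852), 0.47 after median scaling, and 0.42 with sgControl RPP tumor 1 left out. Csf1r, the receptor on which macrophages depend, ranged from 0.443 to 11.6 FPKM (median 6.77) and from 5.92 to 16.8 FPKM (median 7.81). The groups overlapped over most of their range, and sgKdm5a RPP tumor 2, at 16.8 FPKM, stood alone at the top.

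Spi1 had medians of 3.71 and 5.23 FPKM in the sgControl-labelled and sgKdm5a-labelled tumors, with its 2 highest values, 8.87 and 6.99 FPKM, in sgKdm5a RPP tumors 2 and 1. Cd68, a glycoprotein of lysosomes, had medians of 20.5 and 26.9 FPKM, and Mpeg1, a pore-forming protein of phagosomes, 29.1 and 36.3 FPKM. Both exceeded the median of the sgControl-labelled group in 7 of 8 sgKdm5a-labelled tumors. The exception in this group was Aif1, which encodes the actin-binding protein IBA1, with 7.42 ± 2.05 and 6.87 ± 2.26 FPKM (SD, n = 8 each). Its log2 difference was -0.11 (95% interval -0.63 to 0.41), and -0.35 after median scaling.

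The C1q chain genes were among the most abundant members and varied together from tumor to tumor. C1q is the recognition part of the classical complement pathway, built from A, B and C chains in equal number, and in tissue it is made largely by macrophages. C1qa averaged 54.8 ± 22.4 FPKM in the sgControl-labelled and 73.1 ± 23.2 FPKM in the sgKdm5a-labelled tumors (SD, n = 8 each), C1qb 63.9 ± 24.0 and 87.9 ± 28.7 FPKM, and C1qc 55.6 ± 22.4 and 77.3 ± 23.4 FPKM. None of the 3 passed the test over all genes (adjusted p = 0.852 each, limma), with log2 differences of 0.59, 0.60 and 0.66. These were 0.34, 0.35 and 0.41 after median scaling, and 0.20, 0.24 and 0.26 with sgControl RPP tumor 1 left out. Their summed level was 20.9 FPKM in sgControl RPP tumor 1 and 146 to 370 FPKM in the other 15 tumors, with the highest sum in sgKdm5a RPP tumor 2.

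The share of each chain in the summed FPKM varied within limits. C1qa made up 25.9% to 35.3% (30.9% ± 2.91, SD, n = 16), C1qb 32.3% to 43.6% (37.1% ± 3.17), and C1qc 28.8% to 34.7%. The most unequal tumor was sgKdm5a RPP tumor 3, with 67.3 FPKM of C1qa, 111 of C1qb and 77.0 FPKM of C1qc. Over the 16 tumors, on median-scaled log2 values, C1qa and C1qc correlated with Pearson r = 0.94 and Spearman rho = 0.91 (permutation adjusted p = 0.00145 and 0.00435 over 435 member pairs). The r of C1qb with C1qc was 0.94 and with C1qa 0.87 (permutation adjusted p = 0.00145 and 0.00174). Without the 2 tumors farthest from the median of the first gene, these r values were 0.88, 0.87 and 0.73 in the order given. They were 0.98, 0.96 and 0.93 among the 11 tumors numbered 190 to 238. Relative to the summed FPKM of the 6 pan-macrophage genes, C1q stood at 2.08 ± 0.507 in the sgControl-labelled and 2.24 ± 0.567 in the sgKdm5a-labelled tumors (SD, n = 8 each), a difference smaller than the spread within either group.

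**Figure D2:**
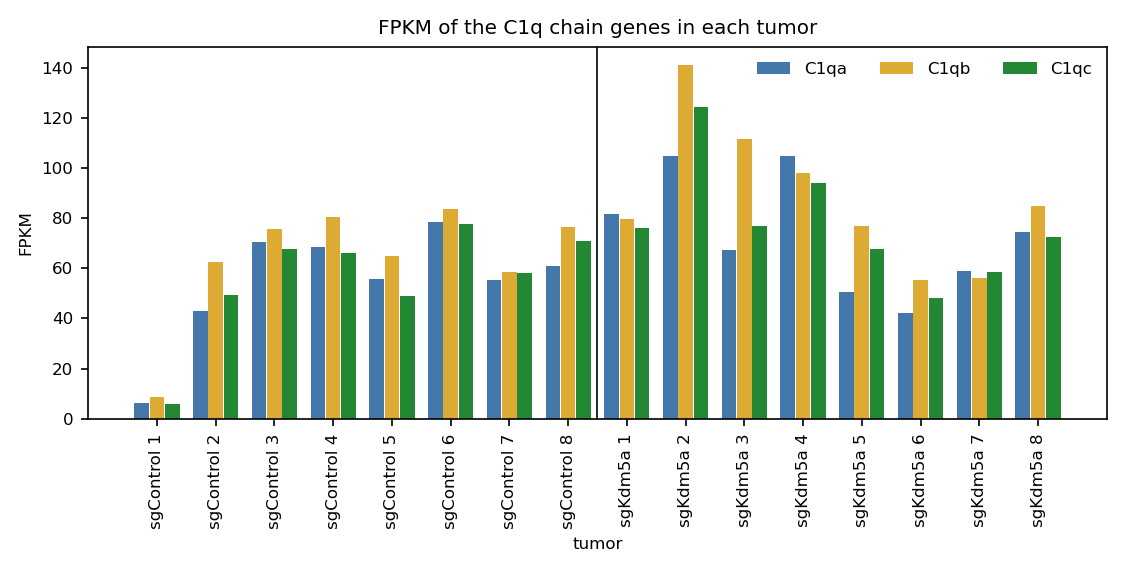
FPKM (y axis) of C1qa, C1qb and C1qc in each of the 16 tumors (x axis), with the sgControl RPP tumors left of the line and the sgKdm5a RPP tumors right of it. The bars of a tumor move up and down together, with C1qb well above the others in sgKdm5a RPP tumor 3, the lowest set is in sgControl RPP tumor 1 and the highest in sgKdm5a RPP tumor 2.

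Among the Fc receptors and their adaptors, 0 of 4 passed the test over all genes. Fcgr1, the high-affinity receptor for IgG, had medians of 1.65 FPKM in the sgControl-labelled and 1.31 FPKM in the sgKdm5a-labelled tumors, and a log2 difference of 0.03 (95% interval -0.47 to 0.53) that was -0.08 after median scaling. Fcgr3, a low-affinity IgG receptor, had medians of 15.4 and 16.7 FPKM and was the most even of all members, with a 1.80-fold range over the 15 tumors other than sgControl RPP tumor 1. Both signal through Fcer1g, the common gamma chain, which averaged 31.4 ± 11.6 and 36.6 ± 10.4 FPKM (SD, n = 8 each). Tyrobp, also called DAP12, is the adaptor of TREM2 and other receptors, and had medians of 55.8 and 69.6 FPKM. In 5 of the 8 sgKdm5a-labelled tumors it was higher than in any sgControl-labelled one, at a log2 difference of 0.49 (adjusted p = 0.852, limma).

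Scavenger and pattern receptors held both the member nearest to the threshold on the deposited values and the most uneven ones. Clec4d, a C-type lectin that recognizes fungal and mycobacterial surface molecules and occurs on monocytes, macrophages and neutrophils, ranged from 0.284 to 1.64 FPKM (median 0.686) in the sgControl-labelled tumors. It ranged from 1.05 to 4.16 FPKM (median 2.62) in the sgKdm5a-labelled tumors. All 8 of these exceeded the median of the other group and 6 exceeded its highest value. Clec4d reached 1 FPKM in 11 of 16 tumors, 8 of them sgKdm5a-labelled, so it passed the filter mainly through that group. The log2 difference was 0.93 ± 0.24 (SE), with an unadjusted p of 0.000869 and an adjusted p of 0.852 (limma). In limma after median scaling it was 0.71 with an adjusted p of 0.483, and without sgControl RPP tumor 1 as well 0.98 with an adjusted p of 0.330. Among the tumors numbered 190 to 238 it was 1.15 with an adjusted p of 0.203 (limma). Relative to the library median, sgControl RPP tumor 1 had the highest Clec4d of all, at 0.566 times the median against 0.0240 to 0.146 times in the other 7 sgControl-labelled tumors and 0.0869 to 0.359 times in the sgKdm5a-labelled ones. The same tumor was the highest in S100a9, a neutrophil gene, at 108 FPKM, against 0.318 to 6.94 FPKM elsewhere. Of 15 neutrophil markers, 14 had a row and 5 were tested, and their summed level was 0.486 to 113 library medians in the sgControl-labelled and 1.19 to 5.86 in the sgKdm5a-labelled tumors. These markers differed: S100a9 reached 1 FPKM in 13 of 16 tumors, while the granule genes Elane, Ngp, Mpo and Camp were at 0 in 15, 12, 11 and 11. Zeros of the granule genes therefore do not show that neutrophils were absent. The part of neutrophils in the Clec4d values was not tested.

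Marco, a scavenger receptor typical of alveolar and some tissue macrophages, was below 1 FPKM in 9 of 16 tumors and reached 35.6 and 16.9 FPKM in sgKdm5a RPP tumors 2 and 4 and 12.4 FPKM in sgControl RPP tumor 5. The lowest value, 0.0450 FPKM in sgControl RPP tumor 4, was 790-fold below the highest. Its medians were 0.462 and 1.10 FPKM, and with no filter on low values the log2 difference was 0.81 (95% interval -0.72 to 2.35, adjusted p = 0.899, limma). Cd163, the receptor for hemoglobin bound to haptoglobin, was low throughout, with 1.06 FPKM in sgKdm5a RPP tumor 2 as its highest value and 0.714 FPKM in sgControl RPP tumor 5 as the next. Mrc1, the mannose receptor CD206, was highest in the same 2 tumors, at 6.57 FPKM in the sgControl-labelled one and 6.42 FPKM in the other. Its medians were 1.58 and 3.03 FPKM, all 8 sgKdm5a-labelled values exceeded the first of these, and the log2 difference was 0.48 (adjusted p = 0.852, limma).

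The other members of this group overlapped broadly. Cd14, the co-receptor for bacterial lipopolysaccharide, had medians of 3.86 and 5.85 FPKM and was again highest in sgControl RPP tumor 5 (17.9 FPKM) and sgKdm5a RPP tumor 2 (15.1 FPKM). Msr1, the class A scavenger receptor, had medians of 4.74 and 5.11 FPKM and its highest value, 8.98 FPKM, in sgControl RPP tumor 7. Clec7a encodes dectin-1, the receptor for fungal beta-glucan. It ranged from 5.51 to 17.5 FPKM and from 5.47 to 26.9 FPKM, lowest in sgKdm5a RPP tumor 2 and next to it, at 5.55 FPKM, in sgKdm5a RPP tumor 7 within that group. Relative to the library median sgKdm5a RPP tumor 7 was the lower of these, at 0.450 against 0.547. The log2 difference of Clec7a was 0.22, and -0.03 after median scaling.

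**Figure D3:**
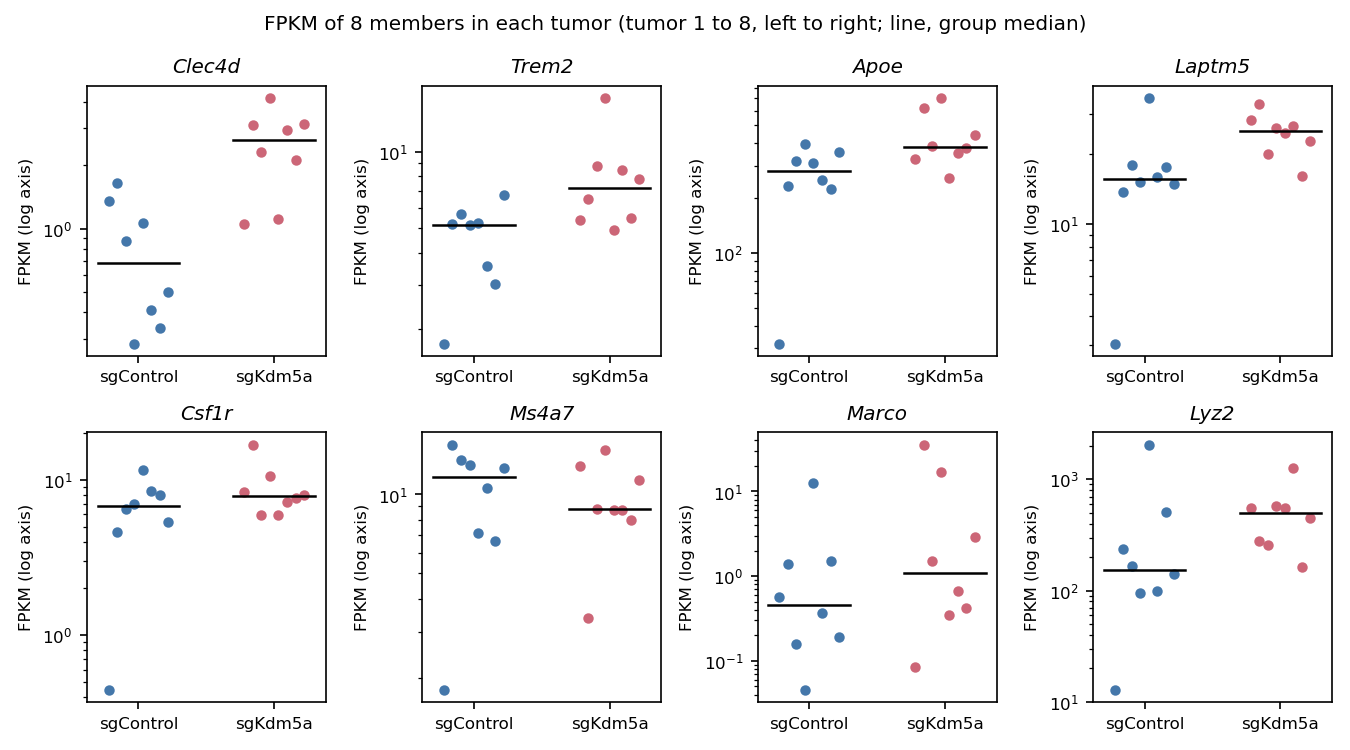
FPKM on a log axis (y axis) of 8 members in the sgControl RPP (blue) and sgKdm5a RPP (red) tumors, ordered from tumor 1 to tumor 8 within each group, with a line at the group median. The lowest point in most panels is sgControl RPP tumor 1, and Marco spreads over more than any other gene shown, from 0.0450 to 35.6 FPKM.

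The lysosomal members all had higher means in the sgKdm5a-labelled tumors, and 0 of 5 passed the test over all genes. On the deposited values 77% of all genes had a log2 difference above 0. Ctss, the protease cathepsin S of antigen processing, ranged from 9.93 to 109 FPKM (median 82.9) in the sgControl-labelled and from 56.8 to 144 FPKM (median 125) in the sgKdm5a-labelled tumors. In 5 of 8 sgKdm5a-labelled tumors it lay above every sgControl-labelled one. Its log2 difference was 0.68 ± 0.39 (SE, limma adjusted p = 0.852), and 0.30 with sgControl RPP tumor 1 left out. Lgmn, the asparaginyl protease legumain, had medians of 70.9 and 95.6 FPKM and followed C1qa closely (r = 0.91, rho = 0.81, permutation adjusted p = 0.00145 and 0.0226). That r was 0.84 without the 2 tumors of most extreme C1qa and 0.90 among the tumors numbered 190 to 238. Cybb, the catalytic subunit of the phagocyte NADPH oxidase, had medians of 4.74 and 6.61 FPKM. Gpnmb, a glycoprotein of lipid-laden macrophages that other cells also make, ranged from 0.669 to 17.5 FPKM and from 1.92 to 34.2 FPKM, and sgKdm5a RPP tumor 2 was the lowest of its group.

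Lyz2 encodes lysozyme, which both macrophages and alveolar type 2 cells make, and was the most uneven of the abundant members. It ranged from 12.8 to 2047 FPKM in the sgControl-labelled and from 165 to 1271 FPKM in the sgKdm5a-labelled tumors, with medians of 153 and 498 FPKM. The log2 difference was 1.32 ± 0.72 (SE), at an adjusted p of 0.852 (limma), 0.81 with number series as covariate, and 0.80 without sgControl RPP tumor 1. It was the largest of any tested member with all 16 tumors, but not without that tumor, where Clec4d stood at 0.99. The 2 tumors with the highest Lyz2, sgControl RPP tumor 5 and sgKdm5a RPP tumor 6, were also the 2 with the highest Sftpc, the surfactant protein C gene of alveolar type 2 cells, at 4123 and 2217 FPKM. Over the 16 tumors Lyz2 and Sftpc correlated with r = 0.87 and rho = 0.84 (permutation adjusted p = 0.00240 and 0.00660 over 60 relations of 30 members with Sftpc and Ptprc). The r was 0.92 without the 2 tumors of most extreme Sftpc and 0.79 among the tumors numbered 190 to 238. By r, Lyz2 alone among the 30 tested members passed for Sftpc in this family, and 0 of 30 passed for Ptprc, the pan-leukocyte gene CD45. By rho, Lyz2 again passed for Sftpc, and Spi1 passed for Ptprc (rho = 0.76, permutation adjusted p = 0.0360, and r = 0.63, permutation adjusted p = 0.0993). Gpnmb came next for Sftpc without passing (r = 0.71, rho = 0.71, permutation adjusted p = 0.0729 and 0.0592), followed by Cybb (r = 0.62). The r with Sftpc was positive in 21 of 30 members, and for C1qb and C1qc it was -0.13 and -0.12. The summed level of the 10 alveolar type 2 markers ran from 11.9 to 5925 FPKM in the sgControl-labelled and from 55.7 to 3054 FPKM in the sgKdm5a-labelled tumors, and Lamp3 was the only one of them at 0 in any tumor, in 2 of 16. The part of alveolar cells in the Lyz2 difference was not tested. Lyz2 also has a close copy, Lyz1 (41.0 ± 93.5 and 32.6 ± 27.7 FPKM, SD, n = 8 each), and reads may be divided between them, so both values are uncertain.

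**Figure D4:**
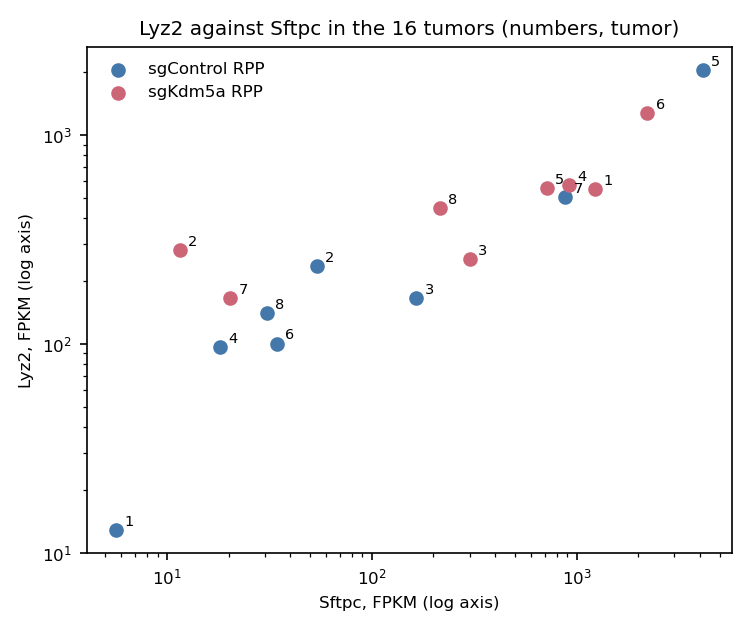
Lyz2 (y axis) against Sftpc (x axis), both in FPKM on log axes, in the sgControl RPP (blue) and sgKdm5a RPP (red) tumors, with the tumor number beside each point. The points rise together (r = 0.87 on median-scaled log2 values, n = 16), from sgControl RPP tumor 1 at the lower left to sgControl RPP tumor 5 at the upper right.

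Among genes of lipid handling and surface proteins, Trem2 and Apoe stood near the top of the members by unadjusted p on the deposited values. The unadjusted p was 0.0191 for Trem2 and 0.0379 for Apoe (limma). Ms4a7, in the same group, had the largest of any tested member, at 0.971 (limma). Trem2, a lipid-sensing receptor of macrophages and microglia that signals through TYROBP, ranged from 1.76 to 6.75 FPKM (median 5.17) in the sgControl-labelled and from 4.94 to 16.2 FPKM (median 7.17) in the sgKdm5a-labelled tumors. Of the latter, 7 of 8 exceeded the median of the sgControl-labelled group and 4 its highest value, and sgKdm5a RPP tumor 4 was the highest. The log2 difference was 0.68 ± 0.27 (SE, limma adjusted p = 0.852), and 0.46 after median scaling. Apoe, a lipoprotein that TREM2 can bind, ranged from 31.8 to 395 FPKM (median 280) and from 258 to 701 FPKM (median 378). Its log2 difference was 0.89 ± 0.40 (SE) on the deposited values, and 0.49 without sgControl RPP tumor 1. After median scaling it was 0.63 with an unadjusted p of 0.0143 and an adjusted p of 0.403 (limma), the smallest adjusted p of any member in that setting. Apoe is also made by many cells that are not macrophages.

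Ms4a7, a membrane protein of tissue and tumor macrophages, had the opposite order of medians, 11.6 FPKM in the sgControl-labelled and 8.77 FPKM in the sgKdm5a-labelled tumors. Only 2 of 8 sgKdm5a-labelled values exceeded the first of these, and sgKdm5a RPP tumor 2 was the lowest of them at 3.36 FPKM. The log2 difference was 0.01 (95% interval -0.69 to 0.71) on the deposited values and -0.20 (-0.68 to 0.28) after median scaling.

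Receptors of adhesion and migration were low, and 0 of 4 passed the test over all genes. Itgam, the integrin CD11b, had medians of 1.10 and 1.86 FPKM, with 4.83 and 4.12 FPKM in sgKdm5a RPP tumors 2 and 4 as its highest values. Itgax, the integrin CD11c of dendritic cells and alveolar macrophages, had medians of 5.85 and 4.45 FPKM. Cx3cr1, the fractalkine receptor, had medians of 2.57 and 2.75 FPKM and was lower in sgKdm5a RPP tumor 2 (0.348 FPKM) than in the other 7 sgKdm5a-labelled tumors. Ccr2, the receptor that brings monocytes out of the blood, had medians of 0.627 and 1.31 FPKM. Its 8 sgKdm5a-labelled values of 0.664 to 2.40 FPKM all exceeded the sgControl-labelled median, while sgControl RPP tumor 5 reached 7.73 FPKM. Ccr2 was at or above 1 FPKM in 9 of 16 tumors, most of them sgKdm5a-labelled, so it passed the filter mainly through that group. The adjusted p-values of these 4 genes were 0.852 to 0.979 (limma).

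Single tumors stood out across many members at once. Relative to the library median, sgKdm5a RPP tumor 2 was the highest tumor for 15 of 32 members and the lowest for 3, and sgKdm5a RPP tumor 4 was the highest for 6. Csf1r, Spi1, C1q, Marco, Cd163 and Cd14 were high in sgKdm5a RPP tumor 2, whereas Cx3cr1, Gpnmb, Clec7a and Ms4a7 were low there. In sgControl RPP tumor 5, Marco, Mrc1, Ccr2, Cd14 and Lyz2 were high while the C1q sum, at 14.2 library medians, lay within the range of the other tumors. Scaling matters for sgControl RPP tumor 1: relative to its low median it was the lowest tumor for 9 members, Csf1r and Mpeg1 among them, and the highest for 4, including Clec4d and Aif1. The summed level of the 6 pan-macrophage genes was 6.59 to 9.93 library medians in the sgControl-labelled and 5.53 to 12.1 in the sgKdm5a-labelled tumors, with 7.65 ± 1.12 and 9.36 ± 1.96 as group means (SD, n = 8 each).

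**Figure D5:**
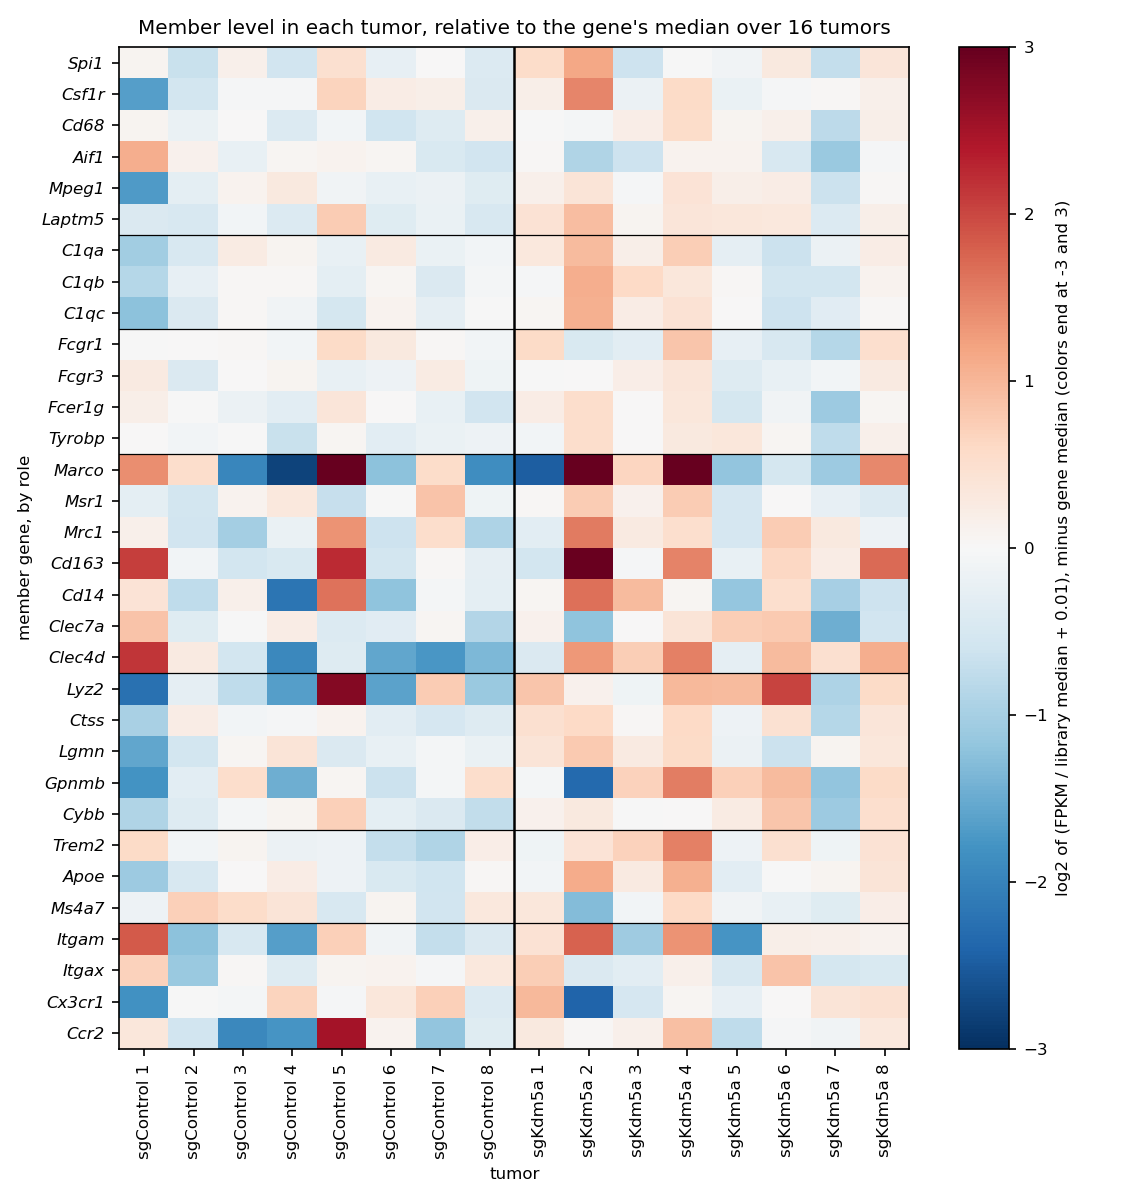
Level of the 32 members (y axis, grouped by role) in the 16 tumors (x axis), as log2 of FPKM over the library median plus a small constant given on the color bar, relative to the median of the gene. Red is higher and blue is lower, sgKdm5a RPP tumors 2 and 4 and sgControl RPP tumor 5 hold the deepest reds, and sgControl RPP tumor 1 mixes deep blue and red.

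Of 435 pairs of tested members, 331 had a positive r over the 16 tumors, with a median of 0.23. By permutation, 35 pairs passed at an adjusted p under 0.05, of which 34 were positive, and 12 passed by Spearman rho as well. Some of the 35 leaned on sgControl RPP tumor 1. Without it the r of Mpeg1 fell from 0.77 to 0.47 with Lgmn and from 0.74 to 0.47 with Csf1r. With Ctss it went from 0.81 to 0.78, and the median r of all pairs was 0.30. Pairs of other genes were not counted for comparison. All pairs share the same libraries and scaling. Clec4d with Trem2 passed by both r and rho (0.77 and 0.83, permutation adjusted p = 0.0103 and 0.0226). Their r was 0.76 without the 2 tumors of most extreme Clec4d, 0.78 among the tumors numbered 190 to 238, and 0.72 and 0.81 within the sgControl-labelled and sgKdm5a-labelled groups. The negative pair was Mrc1 with Ms4a7 (r = -0.77, rho = -0.69, permutation adjusted p = 0.0142 and 0.0763), with r = -0.56 without the 2 tumors of most extreme Mrc1 and -0.91 among the tumors numbered 190 to 238. Laptm5 and Ctss followed the mean of the other members most closely (r = 0.85 and 0.80, given as a description), whereas Aif1, Ms4a7 and Cx3cr1 had r values of -0.11, -0.19 and -0.17.

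Outside the members, the genes whose pattern was most like the mean of the members were Pltp, a phospholipid transfer protein (r = 0.85), the growth factor gene Mdk (0.83), the lymphocyte receptor gene Ly9 (0.82) and Cd38 (0.81). Next came Actr2, an actin nucleation subunit (0.81), tissue factor F3 (0.81), the lysosomal cholesterol carrier Npc2 (0.80) and Itgb2, the beta chain shared by CD11b and CD11c (0.80). These are descriptions over 16 tumors, picked as the highest of all tested genes that are not members.

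Other lists of the same biology likewise held no called gene. Among genes of alternative activation, 4 of 12 were tested and 0 passed. Arg1, which breaks down arginine, averaged 7.08 ± 3.33 FPKM in the sgControl-labelled and 16.9 ± 7.70 FPKM in the sgKdm5a-labelled tumors (SD, n = 8 each). The log2 difference of Arg1 was 1.14 at an adjusted p of 0.852 (limma). Chil3, a chitinase-like protein of alveolar macrophages, averaged 12.3 ± 23.5 and 41.9 ± 53.7 FPKM. In the classical activation list, 4 of 11 genes were tested and 0 passed, with Il1b at 2.53 ± 1.06 and 2.52 ± 2.49 FPKM and Irf5 at 2.39 ± 1.87 and 3.03 ± 1.16 FPKM.

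Among genes of lipid-associated macrophages, 14 of 14 were tested, 0 passed and 12 exceeded the all-gene median difference. The lysosomal proteases Ctsd and Ctsl led them, with 214 ± 89.7 and 363 ± 72.4 FPKM for Ctsd and 84.3 ± 37.7 and 167 ± 93.4 FPKM for Ctsl (SD, n = 8 each). Alveolar macrophage genes passed in 0 of 13 tested, with Ctsk at 8.91 ± 7.63 and 11.9 ± 5.66 FPKM, and genes of interstitial macrophages in 0 of 12, with Sepp1 at 96.1 ± 71.6 and 138 ± 32.3 FPKM. Classical monocyte genes passed in 0 of 8, with all 8 differences above the all-gene median, with Plac8 at 14.6 ± 16.1 and 23.5 ± 17.2 FPKM. Growth factors and receptors of macrophages passed in 0 of 8, with the GM-CSF receptor chain Csf2rb at 1.76 ± 1.08 and 2.73 ± 0.900 FPKM. Monocyte chemoattractants passed in 0 of 7, with Cxcl12 at 10.4 ± 12.4 and 17.0 ± 10.7 FPKM, and macrophage transcription factors, such as Maf and Mef2c, in 0 of 14. Genes of phagocytosis and its checkpoint passed in 0 of 13, with Mertk, a receptor for dying cells, at 1.34 ± 0.569 and 2.33 ± 1.09 FPKM, and Sirpa, the receptor for CD47, at 13.7 ± 7.87 and 20.5 ± 8.57 FPKM.

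Differences of markers of other cells varied in size from list to list, and the sign of those near 0 changed with the setting. Median differences relative to all genes on the log2 scale were 0.16 for 19 pan-leukocyte genes, 1.03 for 11 fibroblast genes, 0.37 for 12 endothelial genes and 0.62 for 10 alveolar type 2 genes, against 0.26 for the 30 members. They were 0.14 for 3 T and NK cell genes, 0.71 for 5 B and plasma cell genes, -0.03 for 4 dendritic cell genes, -0.12 for 5 neutrophil genes, -0.05 for 8 alveolar type 1 genes and 0.39 for 15 neuroendocrine genes. The neutrophil value was -0.20 after median scaling and 0.28 when sgControl RPP tumor 1 was also left out. In the same order the dendritic cell value was 0.02 and -0.05, and the alveolar type 1 value 0.03 and -0.10. Gata2, the one tested mast cell gene, stood at -0.43. Among 19 pan-leukocyte genes 16 exceeded the all-gene median difference, as did 25 of 30 members. None of these genes passed the test over all genes, and their part in the member values was not tested.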

How the data were processed

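Bulk RNA was sequenced from 16 tumors, 8 per label, with stranded total RNA libraries, per the labels' protocols. The authors deposited 1 table, read here as FPKM from its values, since they were not whole numbers although the sheet is named for counts. STAR 2.5.1b, Cufflinks 2.2.1 and build mm9 are named, without roles, in the submitters' processing notes. The annotation is not given in the sources used here. Of 24043 entries, 27 that are dates instead of gene names were left out.

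Genes at or above 1 FPKM in at least 8 libraries were tested on log2(FPKM + 1) with limma 3.58.1 (R 4.3.3, trend and robust), and p-values were adjusted by Benjamini-Hochberg over 13123 genes at a threshold of 0.05. Fold differences on this scale understate changes of low genes. The step was checked on simulated data. Correlations used median-scaled log2 values and 100000 permutations, and summaries used Python 3.11.15, pandas 2.3.3, numpy 2.4.6, scipy 1.17.1 and matplotlib 3.10.9. Promoters are RefSeq windows of 300 bases on GRCm38.p6, not the build of the table.

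The members, lists and tests were chosen with earlier results of these data known. All members are named, and from each list the genes past the threshold or else the 2 of smallest p were candidates for naming, with the 8 genes most like the members, Kdm5a and markers of other cells. S100a9, Lyz1 and the neutrophil granule genes were named for the results beside which they stand. Tumors share replicate numbers across groups, but same-numbered tumors did not deviate together, so the numbers were not taken as pairs. Alternatives were other scalings, filters, pseudocounts, weights, a replicate block, the number series, and each tumor left out.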

Additional observations from a re-analysis of the deposited data

Results flagged for a closer look

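A tumor was flagged where its gap to its nearest neighbor was a larger share of the group's range than Dixon's 95% critical value allows. This held in 17 of 64 member-by-group sets of 8 tumors. Chance alone passes that value in about 1 in 20 groups only if values are normally distributed and groups independent. The sets share the same tumors and the values are FPKM without logs, so 17 of 64 cannot be set against that rate.

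In sgControl RPP tumor 5, the highest of its group, Lyz2 was 2047 FPKM, Laptm5 35.0, Marco 12.4, Cd163 0.714, Cd14 17.9 and Ccr2 7.73 FPKM. That tumor also had the highest Sftpc (4123 FPKM) and Ptprc (13.5 FPKM), whose part was not tested. Of the sgControl-labelled tumors numbered 839 to 893 it is the only one.

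In sgControl RPP tumor 1, the library with the low median, the values far below the rest of the group were 2.02 FPKM for Mpeg1, 8.70 for C1qb, 6.02 for C1qc, 0.341 for Fcgr1, 9.93 for Ctss and 31.8 FPKM for Apoe.

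Among the sgKdm5a-labelled tumors, tumor 2 stood above the rest with 16.8 FPKM of Csf1r, 35.6 of Marco and 1.06 FPKM of Cd163. Trem2 stood apart in tumor 4 at 16.2 FPKM, and Lyz2 in tumor 6 at 1271 FPKM.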

How the results depend on the processing

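Over 26 alternatives, 738 of 780 member differences kept their direction and 42 in 7 members reversed, 0 members were called in any, and the smallest member adjusted p was 0.0676 (limma, Clec4d under sample weights). Members above the all-gene median numbered 22 to 28 and their median exceeded it by 0.19 to 0.38.

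The 1 gene called higher became 0 under median scaling (with and without sgControl RPP tumor 1), quantile normalization, no filter and a pseudocount of 0.1, 2 under sample weights, 6 in the tumors numbered 190 to 238 and 0 there after scaling, which was added after seeing the data. Leaving out 1 tumor gave 0 to 2 higher and 0 to 1 lower, and sample weights gave 3 lower. The replicate block, in which pairing was not shown by the data (same-number correlations -0.30 to 0.38, own number best in 2 of 8), gave 1 higher and 0 lower.

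Reversed values under median scaling were -0.082 for Fcgr1, -0.027 for Clec7a, -0.20 for Ms4a7, -0.020 for Itgax and -0.031 for Cx3cr1. Without sgControl RPP tumor 1 as well they were -0.094 for Fcgr1, -0.23 for Ms4a7 and -0.19 for Cx3cr1. Under quantile normalization they were -0.10 for Fcgr1, -0.015 for Clec7a, -0.16 for Ms4a7 and -0.040 for Cx3cr1, and under sample weights -0.090 for Ms4a7. With the number series as covariate they were -0.12 for Fcgr1, -0.0012 for Clec7a, -0.090 for Ms4a7, -0.029 for Cx3cr1 and -0.041 for Ccr2. In the tumors numbered 190 to 238 they were -0.074 for Fcgr1, -0.20 for Clec7a, -0.30 for Ms4a7 and -0.057 for Cx3cr1. After scaling there they were -0.21 for Fcgr1, -0.0093 for Msr1, -0.50 for Clec7a, -0.55 for Ms4a7, -0.075 for Itgax and -0.15 for Cx3cr1. With 1 tumor left out, Fcgr1 ran from -0.11 to 0.10, Ms4a7 from -0.25 to 0.18 and Cx3cr1 from -0.19 to 0.24. The cause of these changes was not tested. Depth is unknown, so the limit it sets on genes near 0, such as Cd163, cannot be given.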
